A study of Mus musculus with 71 samples.

Results

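A set of 10 genes of the BMP and Nodal branches of TGF-beta signalling were followed in mouse embryonic stem cells (mESC) under inhibition of the m6A writer Mettl3. The genes were taken by name, with earlier results of these data known, so shares called among them are descriptions and no test of the set. They comprised the ligands Nodal and Bmp4, the secreted Nodal inhibitors Lefty1 and Lefty2, and the intracellular brakes Skil, Smad6 and Smad7. The transcriptional regulators Id1, Id2 and Id3 completed the set. All 10 of the 10 names were among the 21527 genes counted, and all 10 passed the filter on low counts that left 12659 genes in the tests.

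Nodal and BMP ligands bind receptor kinases that phosphorylate separate sets of SMAD proteins. Nodal and activin act through Smad2 and Smad3, and BMPs through Smad1, Smad5 and Smad9. The Id genes and Smad6 are classic readouts of the BMP branch, Lefty1, Lefty2 and Nodal itself are classic readouts of the Nodal branch, and most of the encoded proteins feed back on the pathway that switches them on. In mESC, BMP signalling with LIF was an early route to self-renewal, through Id proteins, and Nodal signalling is active as an autocrine loop.

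The cells were male mESC grown in 2i/LIF, a medium that holds them in the naive state, and all were seeded to be confluent when collected. Labelled cells received 100 µM 4-thiouridine (s4U) for 24 h and then an excess of uridine, the chase. STM2457, a catalytic inhibitor of Mettl3, or its solvent DMSO was present from 6 h before the chase to the end of it. Hours of chase are thus also hours of treatment and of time since the change of medium, which cannot be told apart here. Whether cell density at lysis matched between the times is not stated. Cells were lysed at 0, 1, 1.5, 2.3, 3.5, 5.3, 8 and 12 h into the chase, with 4 libraries per treatment and time, except 3 for STM2457 at 3.5 h, and with 4 unlabelled libraries per treatment, whose hours of treatment are not stated. The labels number replicates without saying whether they were separate cultures, and the paper describes its replicates as biological and independent. The p-values measure the spread between these libraries.

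The 71 libraries held 4539726 to 7368244 counted reads in DMSO and 4704543 to 6804970 in STM2457. Of 8 markers of naive embryonic stem cells, 7 were listed, and their summed level was 3030 to 4953 CPM (reads scaled to the effective library size) across DMSO libraries and 3252 to 4657 across STM2457 libraries. Averaged over the chase, 4 of these 7 were called higher in STM2457 and 0 lower (edgeR adjusted p under 0.01). Beside these and the marker calls that follow, 13.9% of all genes tested were called higher and 12.6% lower. The summed level of 4 primitive endoderm markers was at most 12.6 CPM, with Gata6, Sox17 and Pdgfra under 1 CPM on average, and that of 4 fibroblast markers at most 24.3 CPM, with Col1a1, Col1a2 and Col3a1 under 1 CPM. The 4 primed epiblast markers summed to 189 to 360.1 CPM in DMSO and 120.9 to 296.1 CPM in STM2457, with 1 called lower. The 4 mesendoderm markers summed to 13.9 to 100.2 CPM in DMSO and 13.9 to 63.9 CPM in STM2457, also with 1 called lower. Of 4 trophoblast markers, 1 was called higher (summed level 84.1 to 161 CPM in DMSO and 95.6 to 155.2 CPM in STM2457), and the 1 listed neural marker of 3 was called lower (7.95 to 30.6 CPM and 5.66 to 21.9 CPM). The part of these markers in the results below was not tested. In a cell population, fewer cells that express a gene and less RNA per cell cannot be told apart.

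Mettl3 methylates adenosines most often within GGACN, where N here stands for any base but G, and AU-rich letters such as TATTTAT are known from many short-lived messages. Methylation was not measured in these libraries, so the letters are shown only as the sequence context of the genes whose levels are described below. In 1 transcript per gene of GENCODE M21 (GRCm38), read on the sense strand, 8 of the 10 genes had more GGACN per kilobase than the median of 3.71 over 12096 genes tested. Id3 had 7.82 per kilobase, Id2 7.31, Lefty1 6.79, Nodal 6.68, Id1 6.03, Bmp4 5.81 and Lefty2 4.45, while Skil had 2.08, with 13.1% of genes below it. Nearly all genes, 99.3%, held at least 1 such site somewhere in the transcript. TATTTAT was found in the 3′ UTR of 5 of the 10 genes (Smad6, Smad7, Skil, Nodal and Bmp4) and of 27.5% of all genes. The first GGACN after the stop codon and any TATTTAT nearest to the 3′ end are printed in capitals within 30 bases, with positions on GRCm38. They are shown for Skil, Lefty1, Nodal, Bmp4 and Id1 only. A match is a description of letters, not a mapped site.
Skil, chr3:31119456-31119485, plus strand: gaagattattttGGACTtttgtatgtttaa
Lefty1, chr1:180938232-180938261, plus strand: actgcaaaccaaGGACAgaatccccaattg
Nodal, chr10:61425236-61425265, plus strand: ttgtccaagaggGGACTggccatggtggac
Bmp4, chr14:46383821-46383850, minus strand: agtccagagggcGGACAcacacacacacac
Id1, chr2:152737016-152737045, plus strand: cggcgcactgagGGACCagatggactccag
Skil, chr3:31122430-31122459, plus strand: attttggattaTATTTATtgaaacatgaca
Nodal, chr10:61424943-61424972, plus strand: atatatatatgTATTTATttttgatgccat
Bmp4, chr14:46383556-46383585, minus strand: tttgacaaataTATTTATaactacatatta

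The first comparison asked how read counts differed between STM2457 and DMSO over the whole chase. Bmp4 and Id1 were higher in STM2457, and Lefty1, Nodal and Smad7 were lower. These 5 of 10 calls stand against 26.5% of all genes tested called in either direction (edgeR's quasi-likelihood test, adjusted p under 0.01, mean over the 8 chase times). The median log2 fold change was 0.02 over the 10 genes and -0.01 over all genes tested. Counts were scaled by TMM, which assumes that most genes do not change. Every CPM level and fold change is thus relative to the bulk of genes. A shift shared by most transcripts would not be seen, and its part in the calls was not tested. For its RNA-seq the paper warned of such bias and normalized to spike-ins or to genes without m6A sites. Bmp4, which encodes a BMP ligand, had the largest difference of the 10 genes, at 2.36-fold (log2 fold change 1.24, SE 0.13, edgeR adjusted p = 3.78e-12). Id1, a dominant-negative partner of basic helix-loop-helix factors, followed at 1.67-fold (log2 0.74, SE 0.12, edgeR adjusted p = 3.69e-07). Lefty1 was at 0.774 times its DMSO level (log2 -0.37, SE 0.03, edgeR adjusted p = 1.55e-15), with the smallest standard error of the 10 genes. Nodal stood at 0.876 times (log2 -0.19, SE 0.06, edgeR adjusted p = 0.00409) and Smad7, which blocks type I receptors, at 0.758 times (log2 -0.40, SE 0.12, edgeR adjusted p = 0.00607). The Nodal and Smad7 calls were each lost in 6 of the 8 fits without 1 replicate number of a treatment, with an edgeR adjusted p of up to 0.0225 and 0.107. The other 5 genes did not pass: Id2 (log2 0.23, SE 0.22), Smad6 (0.23, SE 0.18), Id3 (-0.11, SE 0.06), Skil (0.08, SE 0.06) and Lefty2 (-0.03, SE 0.04).

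**Figure D1:**
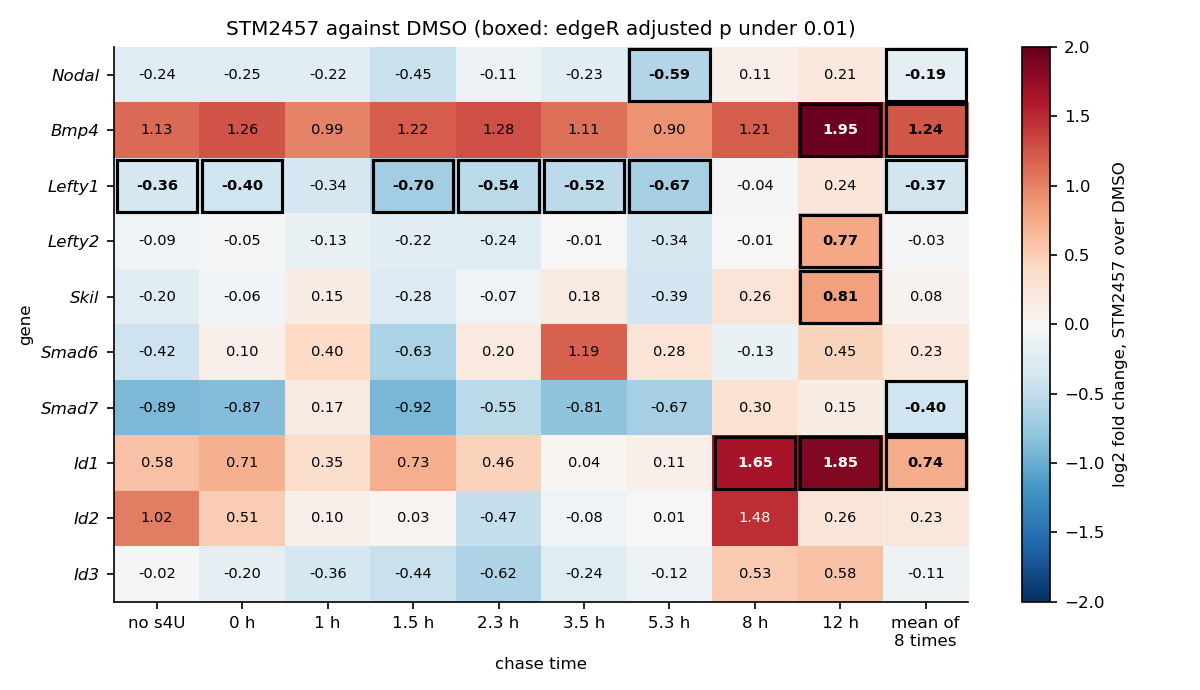
Log2 fold change of read counts, STM2457 over DMSO, for the 10 genes (rows) without s4U, at each chase time and over the mean of the 8 chase times (columns), where boxes mark an edgeR adjusted p under 0.01. Bmp4 lies above 0 in every column, Lefty1 below 0 up to 8 h, and the 4 boxed values at 12 h are all above 0.

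Single chase times gave 11 calls of 80. The share of all genes called was 1.68% at 0 h, 1.53% at 1 h, 8.18% at 1.5 h, 1.61% at 2.3 h, 1.3% at 3.5 h, 4.45% at 5.3 h, 2.34% at 8 h and 5.41% at 12 h. Lefty1 made up 5 of the calls, all lower and all from 0 to 5.3 h. Id1 was called higher at 8 h and 12 h, Nodal lower at 5.3 h, and Bmp4, Skil and Lefty2 higher at 12 h. At 1 h, 0 of the 10 genes were called by edgeR, while 3 had an unadjusted p under 0.05 and DESeq2 called 1, Lefty1. Across gene and time, the libraries of STM2457 and DMSO did not overlap in 14.3% of all cases, and for each of the 10 genes the number of times without overlap is given below.

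**Figure D2:**
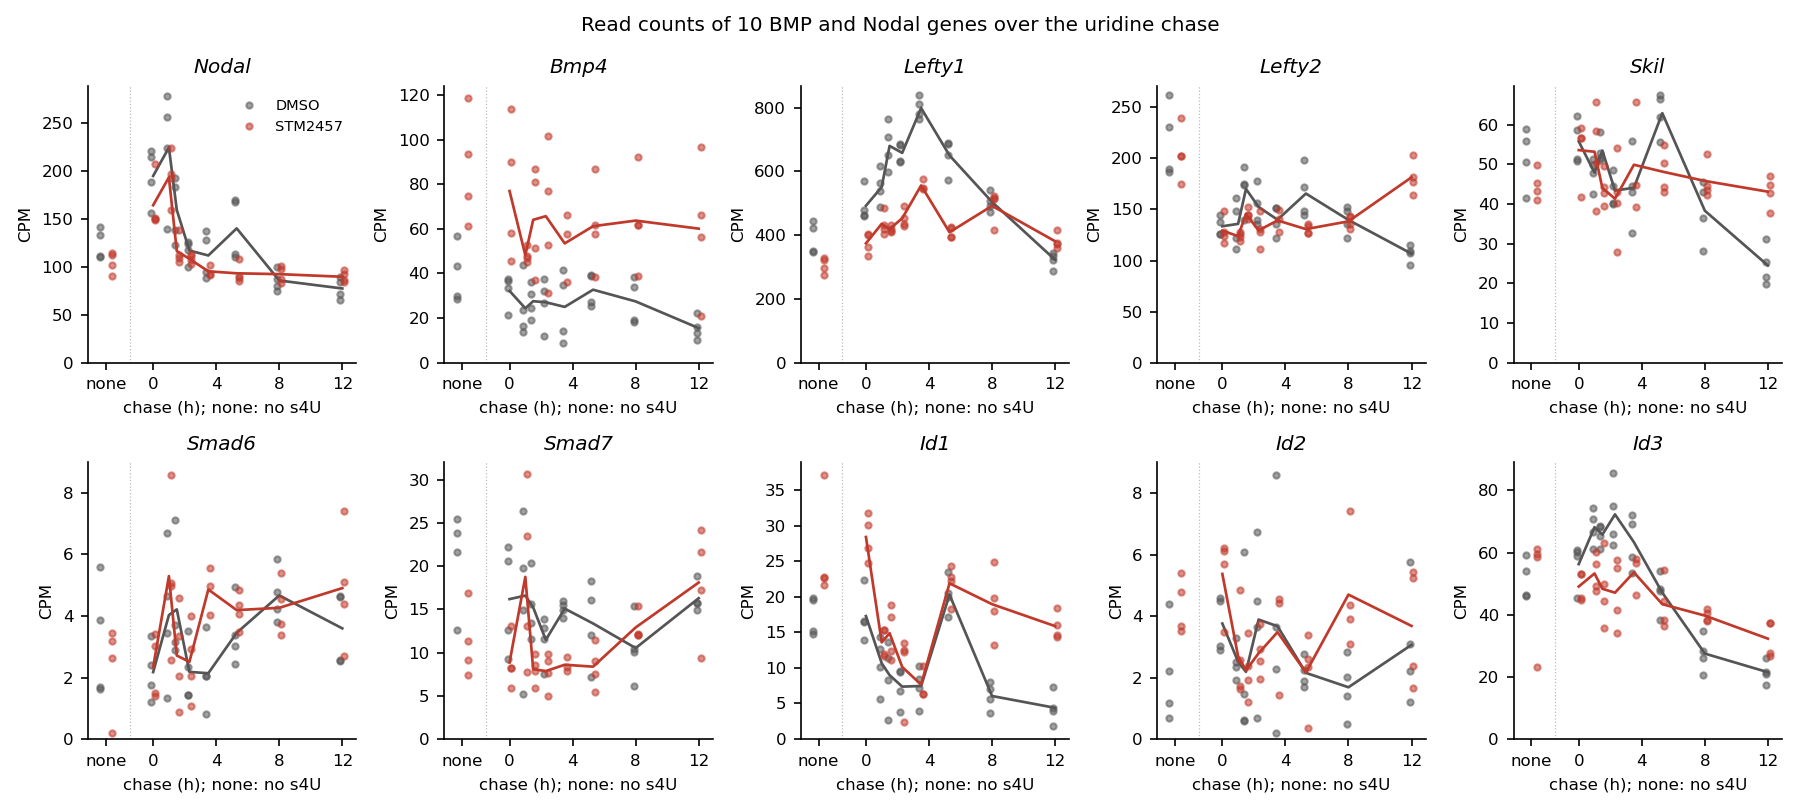
CPM of each library (points) against hours of chase, with unlabelled libraries at the left of each panel, in DMSO (grey) and STM2457 (red), and lines through the group means. Lefty1 in DMSO lies at 764 to 839 CPM at 3.5 h and at 287 to 345 CPM at 12 h, and the Bmp4 mean in STM2457 lies above that in DMSO at every time.

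Of the ligands, Nodal started high and fell. At 0 h the 4 DMSO libraries held 214, 220, 156 and 189 CPM and the 4 STM2457 libraries 150, 207, 149 and 150 CPM. At 12 h they held 83.6, 65.2, 89.1 and 71.4 CPM in DMSO and 92.5, 83.8, 96.1 and 85.8 CPM in STM2457. The treatments overlapped at both times, and every library at 12 h lay below every library at 0 h of the same treatment. The only time at which the treatments did not overlap was 5.3 h, with 113, 110, 170 and 167 CPM in DMSO and 88.6, 108, 90.4 and 85.5 CPM in STM2457. The difference was -0.59 on the log2 scale (SE 0.15, edgeR adjusted p = 0.00816), and the call was lost in 5 of the 8 fits without 1 replicate number and with only the groups compared in the fit. The fall from 0 h to 12 h was -1.33 (SE 0.16) in DMSO and -0.87 (SE 0.15) in STM2457 on the log2 scale, with edgeR adjusted p of 5.97e-10 and 4.65e-05, and the second call was lost without STM2457 replicate 2 (highest edgeR adjusted p 0.0126).

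Bmp4 was the reverse case, with STM2457 above DMSO. At 0 h the DMSO libraries held 37.5, 33.4, 21.5 and 36.5 CPM and the STM2457 libraries 90.1, 45.8, 58.3 and 114 CPM. At 12 h they held 13.3, 22.4, 10.1 and 16.1 CPM in DMSO and 20.9, 66.4, 56.2 and 97 CPM in STM2457. The groups did not overlap at 0 h and overlapped at 12 h by 1 STM2457 library at 20.9 CPM, and STM2457 lay wholly above DMSO at 4 of the 8 times. The fitted log2 fold change was positive at all 8 times, from 0.90 (SE 0.37) at 5.3 h to 1.95 (SE 0.39) at 12 h, and only the latter was called (edgeR adjusted p = 0.000174). With only the libraries of the groups compared in the fit, Bmp4 was also called at 0, 1.5, 2.3, 3.5 and 8 h and without s4U. Its STM2457 libraries were widely spread, and the unlabelled libraries held 56.7, 28.4, 43.2 and 29.9 CPM in DMSO and 119, 74.6, 93.6 and 61.5 CPM in STM2457 (log2 1.13, SE 0.36, edgeR adjusted p = 0.0467).

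Among the feedback inhibitors of Nodal, Lefty1 was the most highly counted of the 10 genes, with 1576 to 4966 reads per library. In DMSO its mean was 492 ± 51.9 CPM (SD, n = 4) at 0 h, 798 ± 33.2 at 3.5 h and 322 ± 25.1 at 12 h. In STM2457 it was 374 ± 33.4 CPM (SD, n = 4), 556 ± 17.8 (SD, n = 3) and 381 ± 23.7 (SD, n = 4) at these times. Both treatments thus had their highest mean at 3.5 h, and the DMSO libraries at that time, 764 to 839 CPM, lay wholly above those of STM2457, 543 to 576 CPM. At 1.5 h the DMSO libraries held 597, 763, 652 and 707 CPM and the STM2457 libraries 433, 409, 414 and 420 CPM. That was the largest difference in Lefty1, at -0.70 on the log2 scale (SE 0.09, edgeR adjusted p = 4.46e-08). From 0 h to 5.3 h STM2457 lay wholly below DMSO at all 6 times. At 8 h the treatments overlapped, with 492, 508, 473 and 543 CPM in DMSO and 523, 516, 415 and 514 CPM in STM2457. At 12 h STM2457 lay wholly above DMSO, with 415, 361, 376 and 370 CPM against 334, 323, 345 and 287 CPM, a difference that was not called (log2 0.24, SE 0.09, edgeR adjusted p = 0.0808). The call at 0 h (log2 -0.40, SE 0.09, edgeR adjusted p = 0.00373) was lost without DMSO replicate 1, STM2457 replicate 3 or STM2457 replicate 4, without the filter on low counts and with only the groups compared (highest edgeR adjusted p 0.0435).

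Lefty2 lies beside Lefty1 on chromosome 1 (180893108 to 180899103 and 180935022 to 180938400, GRCm38), and the pair is 91.9% identical over the coding sequence and 21.9% over the 3′ UTR (425 and 1290 bases, so that most of the longer one has no partner), where reads were counted. Multimapping reads made up 0.238% of the reads of Lefty1 and 2.76% of those of Lefty2, the highest share among the 10 genes, and leaving them out changed no call. Lefty2 showed no call before 12 h, and its libraries overlapped at every time but 5.3 h, where STM2457 lay wholly below DMSO, and 12 h. At 0 h it held 137, 126, 126 and 145 CPM in DMSO and 128, 124, 117 and 148 CPM in STM2457. At 12 h it held 109, 107, 115 and 95.3 CPM in DMSO and 177, 181, 164 and 203 CPM in STM2457. The groups at 12 h were far apart, with a 1.7-fold higher level in STM2457 (log2 0.77, SE 0.11, edgeR adjusted p = 7e-07).

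Skil encodes SnoN, a corepressor that binds Smad2, Smad3 and Smad4. Its libraries held 50.8, 58.8, 51.2 and 62.3 CPM in DMSO and 56.6, 56.7, 41.7 and 59.3 CPM in STM2457 at 0 h. At 12 h they held 19.7, 21.6, 25.5 and 31.1 CPM in DMSO and 47.1, 37.7, 44.7 and 42.8 CPM in STM2457. DMSO libraries had thus dropped wholly below those of STM2457 at 12 h, by a factor of 1.76 (log2 0.81, SE 0.17, edgeR adjusted p = 0.000298). At 1.5 h and 5.3 h, by contrast, STM2457 lay wholly below DMSO, and neither difference was called (log2 -0.28 and -0.39, edgeR adjusted p 0.231 and 0.106).

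Smad6 and Smad7, the inhibitory SMADs, were counted at low levels. Smad6 had 1 to 50 reads per library (median 19), and no difference in it was called. STM2457 lay wholly above DMSO at 1 time, 3.5 h, with 4.05, 4.97 and 5.57 CPM in 3 libraries against 3.64, 2.06, 0.815 and 2.05 CPM (log2 1.19, SE 0.54, edgeR adjusted p = 0.288). Smad7 had 28 to 179 reads (median 71), and STM2457 lay wholly below DMSO at 2 of the 8 times. At 3.5 h the DMSO libraries held 14.9, 15.4, 16 and 13.9 CPM and the 3 STM2457 libraries 7.92, 8.34 and 9.52 CPM. The treatments were well apart at this time, and the difference still missed the threshold (log2 -0.81, SE 0.37, edgeR adjusted p = 0.297).

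The 3 Id genes, whose proteins hold back differentiation factors of the basic helix-loop-helix family, are given in turn. Id1 at 0 h held 13.9, 16.5, 16.4 and 22.3 CPM in DMSO and 31.8, 30.1, 26.9 and 24.7 CPM in STM2457. At 3.5 h its means were 7.45 ± 2.69 (SD, n = 4) and 7.65 ± 2.24 CPM (SD, n = 3). At 5.3 h it stood at 17.2 to 23.4 CPM in DMSO and 18.3 to 24.4 CPM in STM2457. At 8 h and 12 h the treatments lay apart again, as they had at 0 h. At 8 h Id1 held 5.65, 6.97, 7.95 and 3.64 CPM in DMSO and 17.9, 19.8, 24.8 and 13.2 CPM in STM2457 (log2 1.65, SE 0.33, edgeR adjusted p = 0.000565). At 12 h it held 4.43, 3.97, 1.88 and 7.28 CPM in DMSO and 18.4, 14.7, 16 and 14.4 CPM in STM2457 (3.6-fold, log2 1.85, SE 0.34, edgeR adjusted p = 6.6e-05). These calls held under all 15 alternatives. Among those was the looser threshold of 0.05, which could not lose a call. STM2457 lay wholly above DMSO at 3 times, 0 h, 8 h and 12 h. Id1 rested on 11 to 192 reads per library (median 80), so single libraries carry visible counting error.

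Id3 was not called at any single time. At 2.3 h its libraries held 74.9, 66.1, 85.5 and 62.5 CPM in DMSO and 34.1, 57.6, 41.6 and 55 CPM in STM2457 (log2 -0.62, SE 0.18, edgeR adjusted p = 0.0312). At 12 h they held 17.3, 21, 26.1 and 21.5 CPM in DMSO and 26.7, 27.8, 37.5 and 37.2 CPM in STM2457 (log2 0.58, SE 0.19, edgeR adjusted p = 0.0323). STM2457 thus lay wholly below DMSO at 2 times and wholly above it at 2 others. Id2 had 1 to 50 reads per library (median 15), and no difference in it was called. STM2457 lay wholly above DMSO at 1 time, 8 h, with 4.38, 3.09, 7.43 and 3.92 CPM against 2.82, 2.02, 1.41 and 0.5 CPM (log2 1.48, SE 0.63, edgeR adjusted p = 0.2).

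The second comparison asked how the level of each gene changed over the 12 h of chase. In DMSO, Id1, Id3, Nodal, Skil and Lefty1 were lower at 12 h than at 0 h, and 0 of the 10 genes were called higher. These 5 of 10 stand against 13% of all genes called in either direction and 8.2% called lower. The log2 fold changes were -1.97 for Id1 (SE 0.34, edgeR adjusted p = 1e-05), -1.38 for Id3 (SE 0.19, edgeR adjusted p = 2.59e-08), -1.18 for Skil (SE 0.17, edgeR adjusted p = 8.18e-08) and -0.61 for Lefty1 (SE 0.09, edgeR adjusted p = 3.67e-07). All 5 calls held under all 15 alternatives. In STM2457, Nodal was lower and Lefty2 higher (log2 0.49, SE 0.11, edgeR adjusted p = 0.00213), against 4.72% of all genes called, and the Lefty2 call was lost without any 1 of the 4 STM2457 replicates (highest edgeR adjusted p 0.0373). Lefty1 did not move detectably between the ends of the chase in STM2457 (log2 0.03, SE 0.09).

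**Figure D3:**
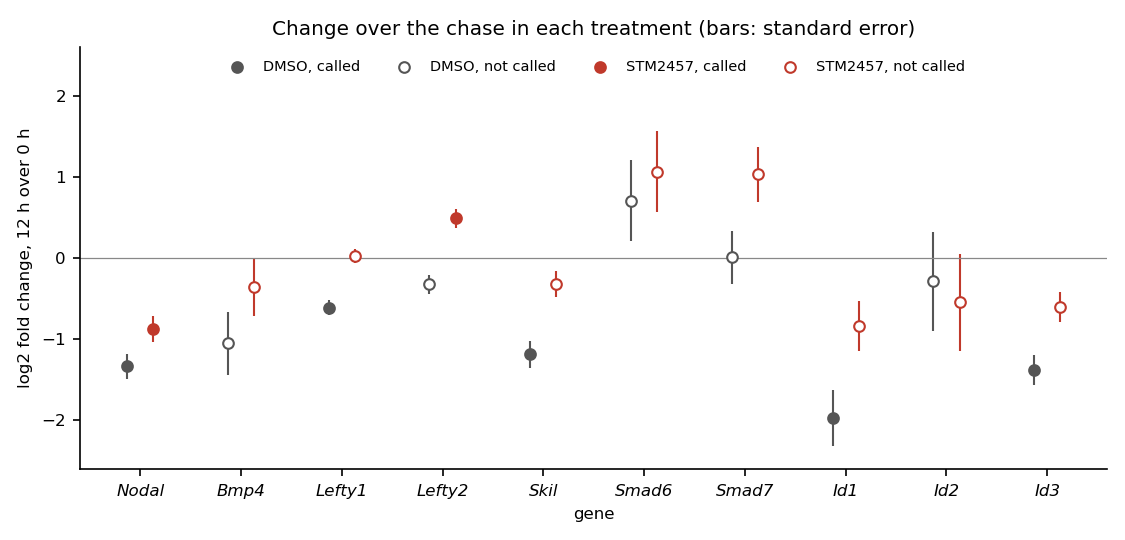
Log2 fold change of read counts from 0 h to 12 h of chase for each gene in DMSO (grey) and STM2457 (red), with filled points for an edgeR adjusted p under 0.01 and bars for the standard error. The DMSO point lies below the STM2457 point for every gene but Id2.

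The difference of the change between the treatments was tested by an interaction term. It was called for Lefty2 (0.81 on the log2 scale, SE 0.16, edgeR adjusted p = 0.000826) and Lefty1 (0.64, SE 0.13, edgeR adjusted p = 0.000951), against 1.11% of all genes tested. Both held under all 15 alternatives. From 0 h to 12 h, Lefty2 changed by -0.32 (SE 0.11, edgeR adjusted p = 0.0321, not called) in DMSO and by 0.49 in STM2457, and Lefty1 by -0.61 in DMSO and by 0.03 in STM2457. The differences of Skil (0.87, SE 0.23, edgeR adjusted p = 0.0216), Id1 (1.13, SE 0.46, edgeR adjusted p = 0.211) and Id3 (0.78, SE 0.26, edgeR adjusted p = 0.0963) had larger errors and were not called. The term was positive for 9 of the 10 genes, with a median of 0.74, beside a median of -0.03 over all genes tested. The 12 h and 0 h libraries enter this term and the comparisons above alike, so these are not independent results.

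The third comparison set the treatments side by side without s4U, and set the labelled libraries at 0 h against the unlabelled ones. The hours of treatment of the unlabelled libraries are not stated. An effect of s4U and one of treatment time or handling therefore cannot be told apart. Without s4U, Lefty1 held 350, 444, 346 and 421 CPM in DMSO and 323, 295, 273 and 329 CPM in STM2457. The unlabelled groups of Lefty1 did not overlap (log2 -0.36, SE 0.09, edgeR adjusted p = 0.00838), and it was the 1 gene of the 10 called, against 2.58% of all genes. The Lefty1 call was lost in 5 of the 8 fits without 1 replicate number, without the filter on low counts and with only the groups compared (highest edgeR adjusted p 0.108). The unlabelled groups of Bmp4 and Id1 did not overlap either, with STM2457 above DMSO. Neither was called (log2 1.13, SE 0.36, and 0.58, SE 0.31, edgeR adjusted p 0.0467 and 0.28). With 24 h of s4U and no chase, Lefty2 was lower than without s4U in both treatments. Its unlabelled libraries held 263, 231, 190 and 187 CPM in DMSO and 240, 202, 174 and 202 CPM in STM2457, all above every 0 h library given above. The log2 fold changes were -0.70 (SE 0.11, edgeR adjusted p = 4.42e-05) in DMSO and -0.66 (SE 0.11, edgeR adjusted p = 0.000205) in STM2457. It was the 1 gene of the 10 called in each, against 0.513% of all genes in DMSO and 0.521% in STM2457. Nodal was 0.65 higher on the log2 scale with s4U in both treatments (SE 0.15 in each) and missed the threshold, with edgeR adjusted p of 0.0114 and 0.0121. The DMSO call of Lefty2 was lost with only the groups compared in the fit (edgeR adjusted p = 0.0216), and the STM2457 call without STM2457 replicate 1 or 2.

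The fourth comparison asked how fast the label was lost. A conversion rate is the number of T-to-C conversions over the T positions covered by the reads of a gene, and the label left is this rate, less the mean rate of the unlabelled libraries, as a share of its value at 0 h. A half-life was fitted to this decay. Since the rate is a share of all RNA of a gene, it follows loss of labelled RNA only where the level is steady. Levels changed over the chase, as for Lefty1 in DMSO (means of 492 CPM at 0 h, 798 at 3.5 h and 322 at 12 h). The half-lives were not corrected for this, and its part in them was not tested. The rate over all genes did not fall evenly either. In DMSO it was 1.12%, 1.15%, 1.01% and 0.534% at 1.5, 2.3, 3.5 and 5.3 h. In STM2457 it was 1.13%, 1.1%, 0.927% and 0.526% at these times. What this uneven course adds to the fitted half-lives was not tested. Over 7407 transcripts, the median half-life was 3.19 h under DMSO and 3.45 h under STM2457. Of the 10 genes 8 passed the filter on the fit, and Id2 and Smad7 did not. In DMSO the half-lives were 1.41 h for Skil, 1.69 h for Id1, 1.71 h for Nodal, 1.9 h for Lefty1, 1.95 h for Smad6 and for Id3, 2.2 h for Bmp4 and 3.26 h for Lefty2. In STM2457 they were 3.23 h for Skil, 1.09 h for Id1, 2.09 h for Nodal, 2.6 h for Lefty1, 1.57 h for Smad6, 1.59 h for Id3, 2.23 h for Bmp4 and 4.15 h for Lefty2. The order of the treatments was not stable for Id1, Smad6, Id3 and Bmp4. For Id1 it turned with replicates fitted singly (means 1.62 ± 0.98 h for DMSO, 2.45 ± 2.89 h for STM2457, SD, n = 4). For Smad6 it turned with conversions pooled over replicates (1.63 h in DMSO and 2.5 h in STM2457), and without 1 replicate its half-life ran from 1.17 h (without DMSO replicate 4) to 2.67 h in DMSO and from 0.972 h (without STM2457 replicate 2) to 2.64 h (without STM2457 replicate 1, no longer passing the filter) in STM2457. With no background subtracted it turned for Id3 (2.01 and 2.03 h) and for Bmp4 (3.45 and 3.08 h), for which it also turned without DMSO replicate 1 (3.13 and 2.23 h, no longer passing the filter), DMSO replicate 2, STM2457 replicate 1 or STM2457 replicate 3. All of these 8 but Lefty2 thus had a shorter fitted half-life than the median transcript in both treatments. In DMSO, 4.46% of transcripts had a shorter fitted half-life than Skil.

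**Figure D4:**
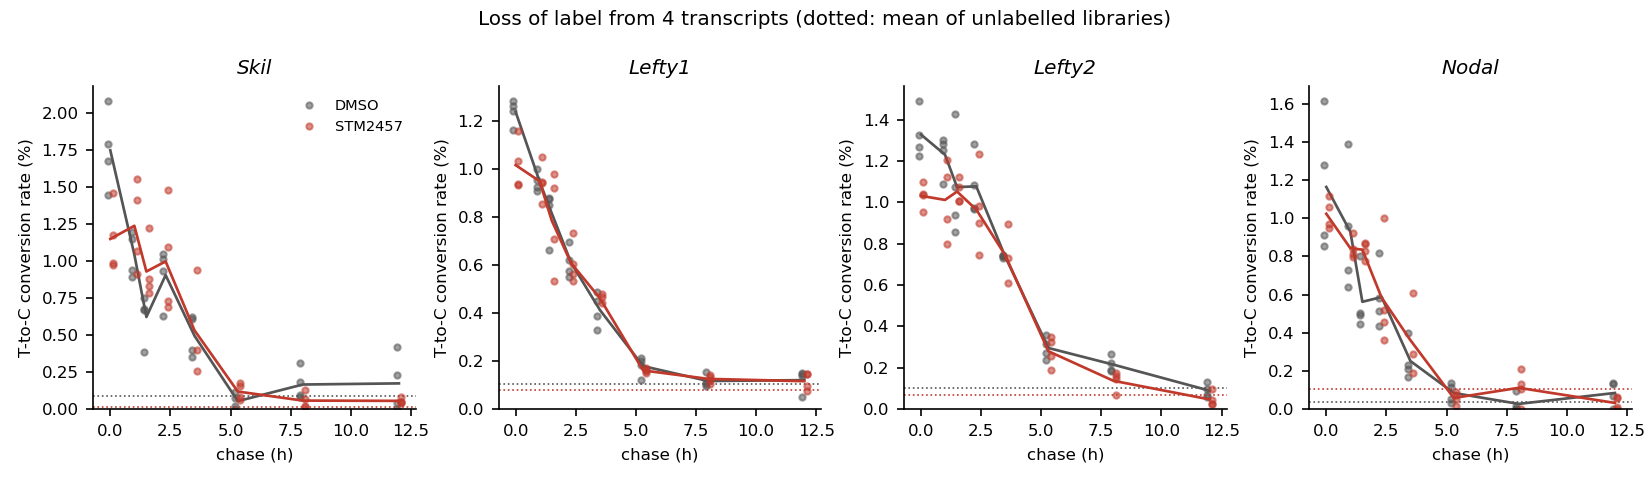
T-to-C conversion rate in percent of each library (points) against hours of chase for Skil, Lefty1, Lefty2 and Nodal in DMSO (grey) and STM2457 (red), with lines through the group means and dotted lines at the mean of the unlabelled libraries. The Skil means differ most at 0 h, at 1.75% in DMSO and 1.15% in STM2457, and at 5.3 h Lefty2 is at 0.295% and 0.28% while the means of the other transcripts are at most 0.179%.

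Fitted in the 4 replicate series of each treatment, the half-life of Skil was 1.62, 1.28, 1.32 and 1.47 h under DMSO against 2.99, 4.06, 3.42 and 2.76 h under STM2457. The series did not overlap, and the two-sided exact permutation test gave p = 0.029, the smallest it can give with 4 against 4 series. The label of Skil left at 1 to 2.3 h was 46.7% ± 4.03 under DMSO and 93.6% ± 13.2 under STM2457 (SD, n = 4 each), with the same p of 0.029 in the exact permutation test. Across all transcripts, 0 of 6571 half-lives (0%) and 0 of 6653 shares of label left (0%) passed limma's test at an adjusted p under 0.05, while 452 and 390 had an unadjusted p under 0.05. Skil's limma adjusted p was 0.565 for the half-life. Its rate at 0 h, which every later share is divided by, was 1.75% ± 0.26 under DMSO and 1.15% ± 0.23 under STM2457 (SD, n = 4 each). At 2.3 h the rates were 0.904% ± 0.19 and 0.997% ± 0.37, and at 3.5 h 0.495% ± 0.14 and 0.532% ± 0.36 (n = 3). At 1.5 h the rates were 0.387%, 0.671%, 0.676% and 0.753% in the DMSO libraries and 0.785%, 1.22%, 0.832% and 0.876% in those of STM2457. The 1.5 h rates, higher in STM2457, were the ones that did not overlap between the treatments, whereas at 0 h the highest STM2457 library (1.46%) reached the lowest of DMSO (1.45%). What the starting rate contributes to the half-life was not tested. The rate over all genes at 0 h was 1.37% in DMSO and 1.28% in STM2457.

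For Lefty1 the series gave half-lives of 1.56, 2.29, 1.88 and 1.94 h under DMSO against 2.7, 3.26, 2.2 and 2.31 h under STM2457. They overlapped, with p = 0.057 in the exact permutation test and a limma adjusted p of 0.669. Its rate at 0 h was 1.24% ± 0.054 under DMSO and 1.02% ± 0.11 under STM2457 (SD, n = 4 each), and at 2.3 h 0.612% and 0.61%. Lefty2 series gave 3.06, 3.56, 2.92 and 3.55 h in DMSO and 4.57, 4.09, 4.2 and 3.34 h in STM2457, also overlapping (exact permutation p = 0.086). Nodal was less apart, at 1.76 ± 0.38 h and 2.14 ± 0.53 h (SD, n = 4 each, exact permutation p = 0.343). For Id1 and Bmp4, whose levels were higher in STM2457, the series were too scattered for a comparison. Those of Id1 ran from 0.279 to 2.57 h in DMSO and from 0.663 to 6.75 h in STM2457, and those of Bmp4 from 1.04 to 24.6 h and from 1.11 to 3.29 h. Of the 7 genes with a half-life in every series, 2 (Skil and Lefty1) had an unadjusted limma p under 0.05.

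A list of 56 other genes of the BMP, Nodal and TGF-beta pathways put the 10 in context. Of these, 54 were listed and 44 were tested, and over the mean of the 8 times 6 were higher and 5 lower in STM2457. The higher ones were Msx2, a BMP target (log2 0.97, SE 0.26), the BMP pseudoreceptor Bambi (0.96, SE 0.08), Tcf15 (0.76, SE 0.06), which encodes a basic helix-loop-helix factor held in check by Id proteins, the corepressors Tgif1 (0.70, SE 0.07) and Ski (0.20, SE 0.04), and the phosphatase Ppm1a (0.45, SE 0.05). Msx2 was counted at a low level, with means of 2.01 CPM in DMSO and 3.02 CPM in STM2457. Its log2 fold change was -0.47 (SE 0.68) at 0 h and 2.45 (SE 0.82) at 12 h, neither called. The lower ones were the activin antagonist Fst (log2 -0.75, SE 0.15), the Nodal co-receptor Tdgf1 (-0.44, SE 0.05), Twsg1 (-0.28, SE 0.09), a secreted BMP modulator, the TGF-beta induced Klf10 (-0.21, SE 0.05) and the Nodal-related ligand Gdf3 (-0.15, SE 0.04). By role, 1 of 8 tested ligands was called, 1 of 9 receptors and co-receptors, 3 of 11 signal transducers and cofactors, 3 of 5 antagonists and 3 of 11 other targets. The share called, 11 of 44, is near the 26.5% of all genes. From 0 h to 12 h in DMSO, 2 of the 44 were higher and 5 lower, beside 13% of all genes called, and at 12 h 2 were called, both higher in STM2457, beside 5.41%. These shares too are near those of all genes.

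**Figure D5:**
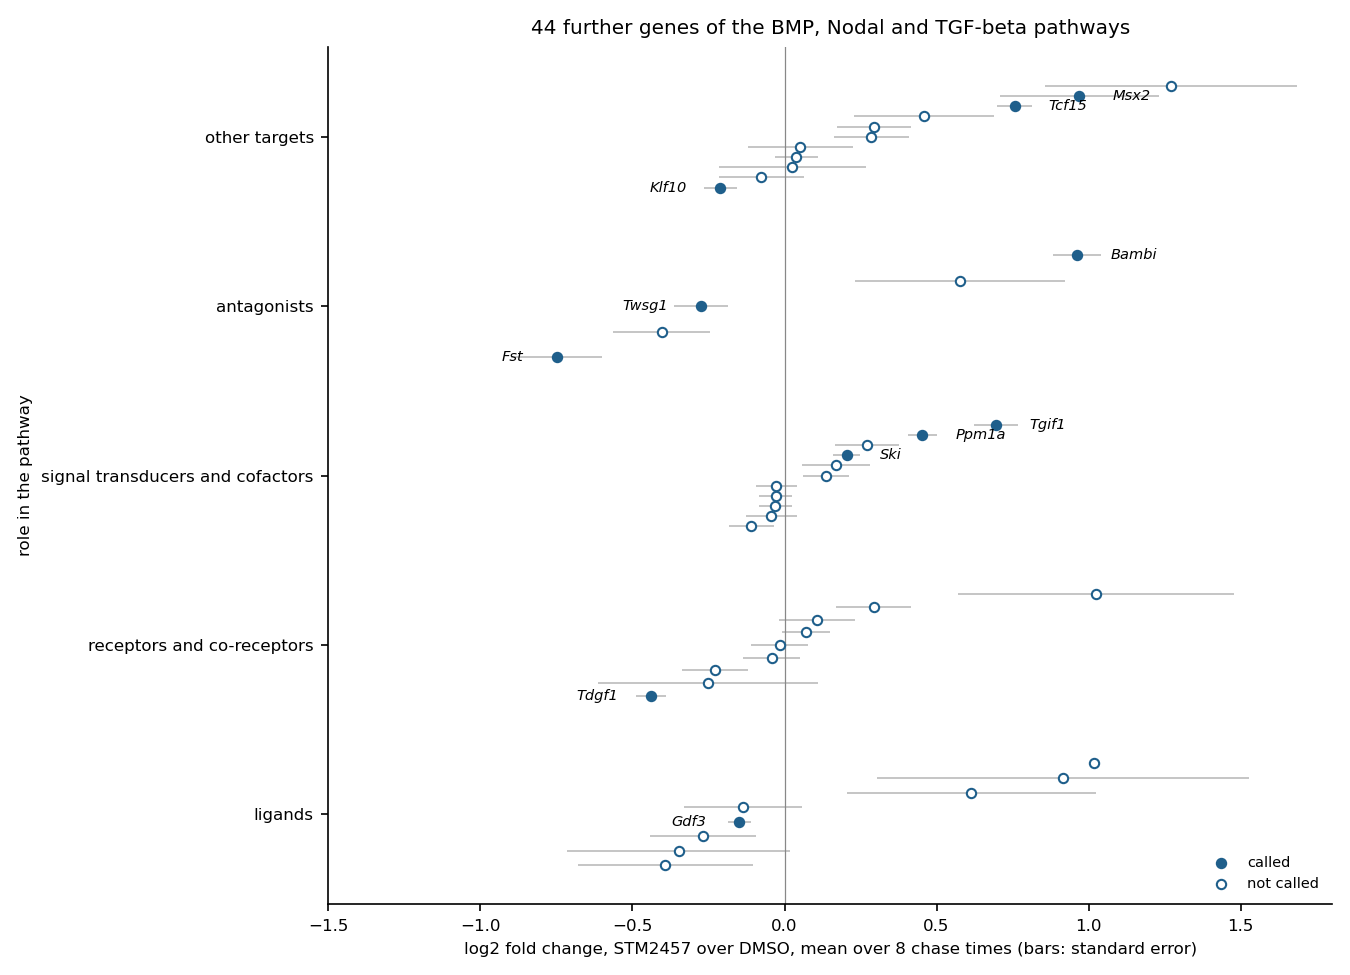
Log2 fold change over the mean of the 8 chase times, STM2457 over DMSO, for 44 further pathway genes by role, with filled points for an edgeR adjusted p under 0.01 and bars for the standard error. Bmp2 (edgeR adjusted p = 0.9999) has no bar, as its test gave no usable standard error. The 11 named genes passed the test, from Fst at -0.75 to Msx2 at 0.97.

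Over the 18 group means of log2 CPM, the genes whose course was most like that of Id1 were Cebpg (Pearson's r = 0.895), Zfp296 (0.887) and Dlc1 (0.863), and most like that of Lefty1 were Dgcr8 (0.858), Odf1 (0.849) and Gm28308 (0.838). Among the 10 genes themselves, Id1 and Bmp4 had r = 0.729, Id3 and Nodal 0.676, Id3 and Skil 0.674, and Lefty1 and Lefty2 -0.04. These are descriptions over groups that share treatments and chase times.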

How the data were processed

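The authors mapped QuantSeq 3′ reads with SLAM-DUNK to GRCm38.p6 and counted them on 3′ UTR windows of GENCODE genes, 1 window set per gene. They deposited, per library and gene, counts of reads, multimapping reads, covered T positions and T-to-C conversions without normalization, and the conversion rate as a fraction, which was recomputed here from those counts. The submitters' processing notes also name FastQC 0.11.8. No molecular identifiers are stated, so reads are not independent molecules. Hours of chase come from the study's publication, since the labels give time points only as T0 to T7.

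The 10 genes and the pathway and marker lists were chosen with earlier results of these data known, and the pathway genes named were the up to 6 largest called log2 fold changes in each direction. Of the pathway list, 1 gene is not reported here and enters none of its counts. Counts were tested with edgeR 4.0.16 (TMM, filterByExpr, quasi-likelihood test over 18 groups, adjusted p under 0.01). The SE of a log2 fold change was derived from this test, as its absolute value over the square root of the F statistic. CPM, on the TMM effective library sizes, were computed from the deposited counts. Rates were averaged per time, the unlabelled mean of the treatment was subtracted, and an exponential decay fixed at the 0 h value was fitted, with half-lives of 0.67 to 18 h, a residual standard error of at most 0.3 and a mean T coverage above 100 kept, on all chromosomes. Series of libraries with the same replicate number were compared with limma 3.58.1 (adjusted p under 0.05) and, for a single gene, a two-sided exact permutation test. STM2457 series 4 has no 3.5 h library and was fitted without it. DESeq2 1.42.0 was an alternative. The 3′ UTR letters were read from GENCODE M21 transcripts, 1 per gene with the longest coding sequence. Scripts were tested on simulated data.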

Additional observations from a re-analysis of the deposited data

Results flagged for a closer look

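Among the 170 groups of 4 libraries of the 10 genes, 10 (5.88%) held a library far from the other 3 by Dixon's test, and chance gives about 1 in 20. The library of STM2457 replicate 1 without s4U was far out for 2 genes, with Id1 at 37.1 CPM (the others at 21.7 to 22.7) and Id3 at 23.2 CPM (58.7 to 61). In STM2457, Id1 at 2.3 h held 2.35 CPM in replicate 3 (12.2 to 13.4), Skil at 0 h 41.7 CPM in replicate 3 (56.6 to 59.3), and Nodal at 0 h 207 CPM in replicate 2 (149 to 150.5). At 8 h in STM2457, Smad7 held 15.4 CPM in replicate 4 (12 to 12.2) and Lefty1 415 CPM in replicate 3 (513.5 to 523). In DMSO, Id2 at 1.5 h held 6.09 CPM in replicate 2 (0.579 to 1.47), Id3 at 0 h 45.3 CPM in replicate 2 (58.8 to 60.8), and Lefty1 at 0 h 569 CPM in replicate 1 (459.6 to 478).

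The change from 0 h to 12 h of chase differed between the treatments for Lefty1, by 0.64 on the log2 scale, and for Lefty2, by 0.81, in the interaction test of edgeR.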

How the results depend on the processing

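The 5 genes called over the mean of the 8 chase times were 5 under every setting that kept all libraries and 3 to 5 without 1 replicate number. The count of 11 calls at single times went to 20 at an adjusted p under 0.05 and to 9 to 12 without 1 replicate number. From 0 h to 12 h, 5 calls in DMSO stayed at 5 without 1 replicate number and became 6 with only the groups compared (Bmp4 added) and 7 at an adjusted p under 0.05 (Bmp4 and Lefty2 added), and 2 calls in STM2457 became 4 with only the groups compared, 4 at an adjusted p under 0.05 and 0 to 2 without 1 replicate number. The 2 interaction calls stayed at 2 without 1 replicate number and were 2 to 3 otherwise. Without s4U, 1 call became 0 without the filter on low counts, 2 at an adjusted p under 0.05 and 0 to 1 without 1 replicate number, and with only the groups compared the 1 call was Bmp4 and not Lefty1. For 0 h against unlabelled in DMSO, 1 call became 2 without the filter, 2 with DESeq2, 3 at an adjusted p under 0.05, 0 with only the groups compared and 1 without 1 replicate number. In STM2457 it became 2 without the filter, 2 with DESeq2, 2 with only the groups compared, 2 at an adjusted p under 0.05 and 0 to 2 without 1 replicate number. The added call was Nodal in each of these cases, and the looser threshold also added Lefty1 in DMSO. The causes were not tested. Half-lives and shares of label left gave 0 calls among the genes under every alternative. No called value changed sign.

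In read counts, replicate numbers gave little sign of pairing. The mean correlation of deviations was low (0.00967 over 35 pairs, range -0.0771 to 0.27), with 1 pair over 0.1 and 10 libraries closest to their own number. The conversion rate over all genes was lowest in replicate 1 of both treatments at 0, 1.5 and 2.3 h, but not at the other chase times. Pairing of conversion rates was not tested, and the exact permutation test of the series used none. With the replicate block, 5 genes were called over the mean of the 8 times, and 2 for 0 h against unlabelled in DMSO. Genes with a median of 15 to 19 reads, Id2 and Smad6, limit what could be detected.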
